A study of Mus musculus with 8 samples.

Results

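Zinc finger genes with a Zfp symbol were followed in mouse neural stem/precursor cells (NS/PCs) that had been transduced with Nfia, which encodes nuclear factor I A, one of the NFI transcription factors. The members were chosen by symbol and level: they are the genes whose symbol is Zfp followed by digits alone and whose mean over the 6 RNA-seq libraries was 2 FPKM or more. FPKM is a fragment count scaled to transcript length and to the size of the library. There were 276 such genes among 23997 symbols, out of 333 with a symbol of that form, so 57 fell below the level. The level itself chose the members, so the levels below are a description, and only the difference between the groups was tested.

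The cells came from ICR mice, from the E11.5 telencephalon (E, embryonic day), and basic fibroblast growth factor at 10 ng/mL was in their medium. The control group held 3 libraries and the Nfia group 3 libraries, and the series title and design place the RNA 3 days after transduction. The sources used here do not give the vector, its promoter, what the control cells received or whether each library had its own culture. The p-values therefore rest on the spread among these libraries, which may be a technical spread. The 2 ChIP samples of the series were not analysed here.

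Most Zfp proteins carry C2H2 zinc fingers, small folds that hold a zinc ion with a pair of cysteines and a pair of histidines and read DNA in tandem arrays. Many mouse Zfp genes belong to the KRAB family, whose proteins bring the corepressor TRIM28 and the histone methyltransferase SETDB1 to their DNA targets, and these genes often stand in chromosomal arrays that arose by duplication. Others act in neural development, RNA decay, ribosome quality control or the spindle. The Zfp symbol is given for a sequence feature, so the members share no single pathway.

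Nfia itself was 19.8, 23.9 and 22.2 FPKM in the control libraries and 69.0, 85.6 and 103.5 FPKM in the Nfia libraries, so the groups matched their labels. The libraries held totals of 474010 to 511700 FPKM. Their relative depth, read from the step size of low values, was 0.758 to 1.11 of that of control 1, and the absolute depth is unknown. The precursor genes Nes, Sox2, Vim, Fabp7, Hes5, Pax6, Sox9 and Slc1a3 were all present, at means of 14.3 to 3192 FPKM, with Nes, Vim and Slc1a3 higher and Hes5, Pax6 and Sox9 lower in the Nfia libraries. Of 10 neuron markers, 9 were lower with Nfia, and their summed level was 1702 to 1783 FPKM in control and 1074 to 1095 FPKM in the Nfia libraries. Fewer neurons and less of these RNAs per cell cannot be told apart in bulk RNA, and the part of this shift in the Zfp values below was not tested. The summed microglia markers reached at most 1.69 FPKM (Aif1 was listed at 0 in 5 libraries), and the endothelial markers 3.42 FPKM. Of these, Cldn5, an endothelial junction gene, was lower with Nfia (2.09 ± 0.339 against 1.02 ± 0.158 FPKM, SD, n = 3 per group, limma adjusted p = 0.0121). Cldn5 was the only 1 of 5 endothelial markers at a mean of 1 FPKM or more. Pecam1, Kdr, Cdh5 and Tek, at means of 0.033 to 0.42 FPKM, were not tested. The summed mesenchymal markers set 1 library of each group apart: they were 5.72 FPKM in control 1 and 4.46 FPKM in Nfia 1, and 14.3 to 16.4 FPKM in the other 4 libraries. The collagen gene Col3a1, for example, was 1.33 and 1.19 FPKM in these libraries and 4.71 to 5.55 FPKM in the others. The part of this in the Zfp values was not tested beyond the fits without these libraries given below.

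The Zfp genes moved little and more often down than up. Of the 276 members, 40 were lower and 14 higher with Nfia at an adjusted p under 0.05 (limma on log2(FPKM + 1), Benjamini-Hochberg over 12537 genes), or 14.5% lower and 5.07% higher. Of all genes tested, 15.1% were lower and 16.1% higher, and 31.3% were called in either direction against 19.6% of the members. The share of lower members was thus near the background, and the share of higher members was below it. No test of these shares was made. The median log2 difference, Nfia minus control, was -0.06 for the members and 0.01 for all genes tested. The middle 50% of members lay between -0.16 and 0.03, and that of all genes between -0.15 and 0.16. A log2 difference below 0 was seen in 189 members (68.5%), against 48.5% of all genes tested.

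Among the members, 80 had all 3 Nfia libraries below all 3 control libraries and 26 had them all above, 38.4% together. Of all genes tested, 22.9% had them all below and 24.7% all above, 47.7% together. All 54 called members were among them. The summed level of the members was 3718 to 3884 FPKM in the control libraries and 3597 to 3655 FPKM in the Nfia libraries, and these ranges did not overlap. Only 4 members had a log2 difference of 0.5 or more in size, all of them lower, and the largest increase was 0.40. The share of all genes tested at that size is not given. The SD of the log2 differences over genes was 0.17 for the members and 0.41 for all genes tested. A called log2 difference of 1 or more in size was found in none of the members and in 1.16% of all genes tested. These counts are on the log2(FPKM + 1) scale, which understates changes of low genes. The control mean of Zfp503, for example, was 2.045 times its Nfia mean, but its log2 difference was -0.89. The median level was 8.72 FPKM for the members and 14.65 FPKM for all genes tested. The calls rested on all libraries: without Nfia 2 there were 18 lower and 7 higher members, and without control 1 there were 21 and 8. In each of the other leave-one-out fits 8 or 9 members were higher. Calls also fell among all genes tested, from 1898 lower and 2020 higher. They were 1251 and 1290 without Nfia 2, and 1407 and 1487 without control 1. Without control 1 and Nfia 1 together, which leaves 2 libraries per group, 11 members were lower and 4 higher, while 950 of all genes tested were lower and 1008 higher, and the members' median was again -0.06. With upper-quartile scaling 50 members were lower and 9 higher, so the share of higher calls was 15.3% in place of 25.9%. All genes tested moved the same way, with 2242 lower and 1691 higher under this scaling, against 1898 and 2020 without it.

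**Figure D1:**
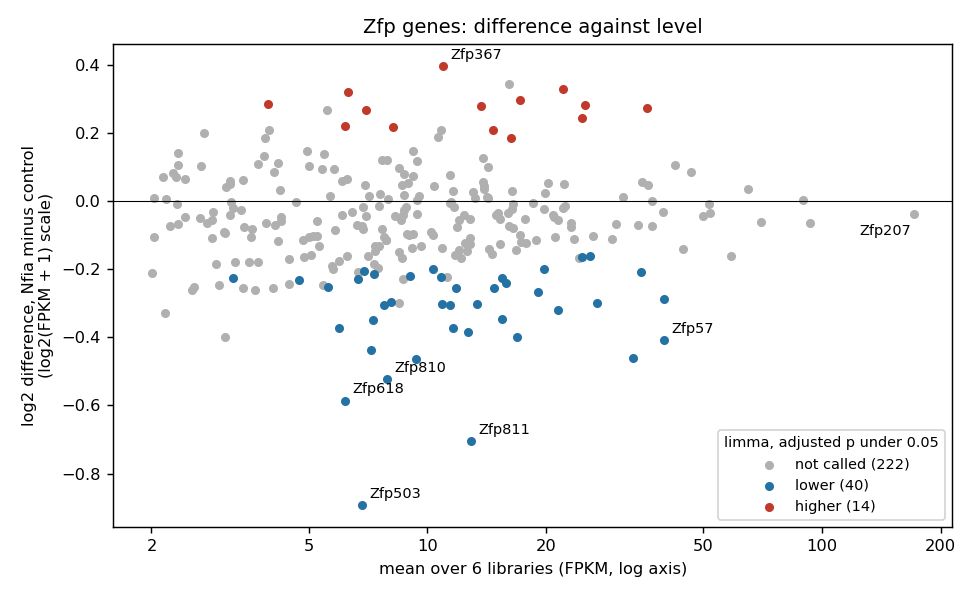
Log2 difference (Nfia minus control, computed on log2(FPKM + 1)) against the mean of the 6 libraries in FPKM (log axis), 1 point per Zfp gene, blue for the 40 lower, red for the 14 higher and grey for the 222 that did not pass. Most points lie within 0.2 of 0 at every level, and Zfp503 and Zfp811 lie farthest below.

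The promoters of the most changed members are shown because the transduced factor binds a known DNA motif. NFI proteins bind a palindrome, TTGGC and GCCAA set apart by 5 bases of any kind, and more weakly a single arm such as TTGGCA. RefSeq windows of 300 bases (250 before and 50 after an annotated start, GRCm38.p6) were matched by symbol for 228 of the 276 members, 281 windows in all. Capitals mark TTGGCA on either strand (TGCCAA on the strand shown), and each sequence runs 5′ to 3′ on the strand of the gene. The first 3 belong to the pair with the largest decreases and to the member with the largest increase. The last 2 were chosen after the search, as called members with a match.
Zfp503, chr14:21989552-21989851, minus strand: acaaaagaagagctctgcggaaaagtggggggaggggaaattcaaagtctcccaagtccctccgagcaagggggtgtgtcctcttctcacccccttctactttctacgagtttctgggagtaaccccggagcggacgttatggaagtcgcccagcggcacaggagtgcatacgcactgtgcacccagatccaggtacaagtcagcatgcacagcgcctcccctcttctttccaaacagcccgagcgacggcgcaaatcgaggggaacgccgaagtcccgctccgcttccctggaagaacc
Zfp811, chr17:32809882-32810181, minus strand: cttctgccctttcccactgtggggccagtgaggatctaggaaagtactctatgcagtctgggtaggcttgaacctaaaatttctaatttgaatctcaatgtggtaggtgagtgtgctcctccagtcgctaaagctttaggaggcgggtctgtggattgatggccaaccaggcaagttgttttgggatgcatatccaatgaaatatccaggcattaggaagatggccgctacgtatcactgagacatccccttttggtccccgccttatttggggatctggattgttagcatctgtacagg
Zfp367, chr13:64153150-64153449, minus strand: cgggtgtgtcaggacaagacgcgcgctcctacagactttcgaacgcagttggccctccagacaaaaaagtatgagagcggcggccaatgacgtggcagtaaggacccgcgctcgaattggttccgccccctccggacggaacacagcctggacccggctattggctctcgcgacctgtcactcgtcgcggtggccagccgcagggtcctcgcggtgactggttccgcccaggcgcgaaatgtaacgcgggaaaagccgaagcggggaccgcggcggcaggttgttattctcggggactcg
Zfp57, chr17:37002275-37002574, plus strand: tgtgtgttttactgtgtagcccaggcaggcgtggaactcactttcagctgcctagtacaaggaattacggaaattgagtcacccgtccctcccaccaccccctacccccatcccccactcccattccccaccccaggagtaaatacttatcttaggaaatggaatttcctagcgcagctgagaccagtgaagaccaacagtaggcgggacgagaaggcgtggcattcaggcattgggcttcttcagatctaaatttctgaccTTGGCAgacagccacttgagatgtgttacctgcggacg
Zfp189, chr4:49520926-49521225, plus strand: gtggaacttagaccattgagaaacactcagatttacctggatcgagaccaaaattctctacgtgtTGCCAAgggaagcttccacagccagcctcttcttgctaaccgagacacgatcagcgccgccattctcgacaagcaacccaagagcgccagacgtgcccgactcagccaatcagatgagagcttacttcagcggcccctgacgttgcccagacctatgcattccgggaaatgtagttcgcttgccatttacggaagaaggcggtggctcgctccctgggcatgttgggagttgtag

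None of the windows of Zfp503, Zfp811 or Zfp367 held TTGGCA. In Zfp57 it lay 12 bases after the annotated start site, in 1 of the gene's 3 windows, and in Zfp189 it lay 185 bases before that site. The 6-base motif was in 34 of 281 member windows (12.1%), against 4640 of 32851 windows of all genes (14.1%). It was in 5 of 39 windows of lower members (12.8%), 1 of 16 of higher members (6.25%) and 28 of 226 of members that did not pass (12.4%). These windows belonged to 32, 13 and 183 genes, and a gene with several windows counts more than once. The median share of G and C bases was 55.7%, 62.2% and 55.8% in these groups and 52.7% in windows of all genes. Its part in the counts was not tested. The palindrome was in 0 of the member windows and in 12 windows of all genes (0.0365%). A palindrome shares the TTGGC letters of the shorter motif and can overlap it, but does not need its last base. These counts describe letters in short windows, and distal sites were not searched.

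The member with the largest difference was Zfp503, also known as Nolz1, which encodes a repressor of the NET family known from the developing striatum. It was 8.73, 9.41 and 9.43 FPKM in the control libraries and 4.13, 4.75 and 4.61 FPKM in the Nfia libraries. The groups did not overlap, and the mean fell by 51.1%, from 9.19 ± 0.395 to 4.49 ± 0.327 FPKM (SD, n = 3 per group; log2 difference -0.89, SE 0.07, limma adjusted p = 0.000402). Its NET family relative Zfp703 averaged 11.7 ± 0.163 FPKM in control and 11.6 ± 1.04 FPKM with Nfia and did not pass the test (adjusted p = 0.875 by limma). Zfp503 occupies 21983959 to 21989601 of chromosome 14 in GRCm38.

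Zfp811 was next, at 16.5, 14.98 and 17.2 FPKM in control and 9.87, 9.10 and 9.72 FPKM with Nfia, a fall by 41.1% (log2 difference -0.70, SE 0.06, limma adjusted p = 0.000626). Zfp618 was 7.49, 7.96 and 7.44 FPKM in control and 4.99, 4.07 and 5.25 FPKM with Nfia (log2 difference -0.59). Zfp810 was 9.76, 8.76 and 10.0 FPKM in control and 6.42, 6.19 and 6.28 FPKM with Nfia (log2 difference -0.52). In all 3 genes every Nfia library lay below every control library, and the calls held without any 1 library.

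Lower levels were also found for the more abundant Zfp60 and Zfp467, and for Zfp688, at a mean of 9.36 FPKM. Zfp60 was 41.5, 36.2 and 37.8 FPKM in control and 28.7, 27.6 and 26.8 FPKM with Nfia (log2 difference -0.46, limma adjusted p = 0.00229). Zfp467 was 19.2, 19.7 and 19.1 FPKM in control and 13.7, 14.4 and 15.3 FPKM with Nfia (log2 difference -0.40). The groups of both genes did not overlap. The control libraries of Zfp688 were more spread, and ranged from 9.21 to 12.8 FPKM against 7.56 to 7.88 FPKM with Nfia (log2 difference -0.46). Zfp688 no longer passed when control 1 or any 1 of the Nfia libraries was left out (limma adjusted p up to 0.0634).

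The rest of the 14 largest decreases were Zfp30 (log2 difference -0.44), Zfp57 (-0.41), Zfp799 (-0.38), Zfp37 (-0.37), Zfp667 (-0.37), Zfp790 (-0.35) and Zfp946 (-0.35). Zfp30 had the tightest Nfia libraries of these, 5.90, 6.003 and 5.95 FPKM, against 8.58, 7.84 and 8.88 FPKM in control. Zfp790 no longer passed without control 1 or without control 2 (limma adjusted p up to 0.0529). The other 26 lower members had log2 differences of -0.16 to -0.32. Taking all 40, 16 held when any 1 library was left out, and 11 of them also without control 1 and Nfia 1 together.

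Zfp367 had the largest increase. It was 9.70, 9.14 and 9.10 FPKM in the control libraries and 13.8, 11.9 and 12.1 FPKM in the Nfia libraries, so the groups did not overlap. The mean was 1.35-fold higher with Nfia (log2 difference 0.40, SE 0.07, limma adjusted p = 0.00575). It lies on chromosome 13 from 64133022 to 64153199. Zfp704 was 17.8, 19.97 and 20.5 FPKM in control and 23.7, 23.5 and 26.8 FPKM with Nfia, 1.27-fold higher (log2 difference 0.33, limma adjusted p = 0.0158, and 0.0766 without control 1 and Nfia 1 together). Zfp639 had the smallest SE of the higher members, 0.0362, with 22.3, 22.4 and 22.6 FPKM in control and 27.1, 26.4 and 26.7 FPKM with Nfia (log2 difference 0.24, limma adjusted p = 0.00378).

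Genes for partner proteins differed in direction. ZFP592, ZFP687 and ZFP532 are known as partners in a chromatin complex with ZMYND8, and these genes were put together here after their values were seen. Zfp687 was 15.4, 15.4 and 15.2 FPKM in control and 18.7, 18.5 and 20.1 FPKM with Nfia (log2 difference 0.30, limma adjusted p = 0.0045). Zfp592 was 5.65, 6.60 and 6.53 FPKM in control and 7.67, 7.39 and 8.13 FPKM with Nfia (log2 difference 0.27). Zfp532 went the other way, from 23.9, 24.7 and 23.1 FPKM to 19.2, 18.1 and 19.6 FPKM (log2 difference -0.32, limma adjusted p = 0.00393). The Zfp592 log2 difference no longer passed when any library but control 2 was left out (limma adjusted p up to 0.0942), with no filter on low values (0.0613) and with upper-quartile scaling (0.0554), while those of Zfp687 and Zfp532 held in each of these fits.

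The other higher members were Zfp142 (log2 difference 0.32), Zfp526 (0.29), Zfp598 (0.28), Zfp948 (0.28), Zfp106 (0.27), Zfp809 (0.22), Zfp189 (0.22), Zfp275 (0.21) and Zfp777 (0.19). Of the 14 higher members, 6 held when any 1 library was left out: Zfp367, Zfp704, Zfp687, Zfp106, Zfp639 and Zfp275. Of these, Zfp704 and Zfp275 did not hold without control 1 and Nfia 1 together. The call of Zfp189 ended in every leave-one-out fit (limma adjusted p up to 0.12).

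**Figure D2:**
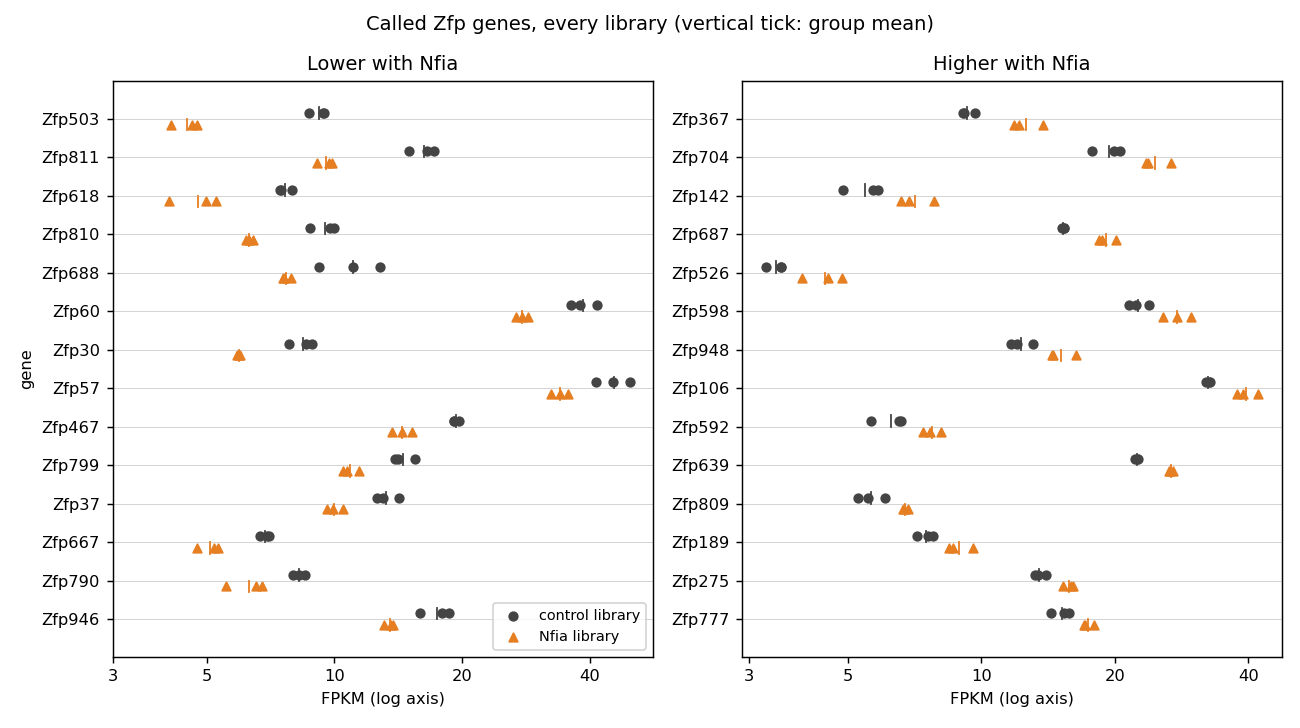
FPKM (log axis) in each of the 3 control libraries (dark grey circles) and 3 Nfia libraries (orange triangles) for the 14 members with the largest decreases and the 14 higher members, with a vertical tick at each group mean. The genes were picked among called members whose groups do not overlap, so this holds for each by choice. Zfp503 has the widest distance between the groups.

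Genes with a known part in neural development were mostly little changed. Of 19 members on that list, 2 were lower and 1 higher, with a median log2 difference of -0.05. The called share was 15.8%, against 31.3% of all genes tested. The lower ones were Zfp503 and Zfp608, the latter at 16.2, 17.8 and 16.3 FPKM in control and 14.5, 13.9 and 14.2 FPKM with Nfia (log2 difference -0.22, limma adjusted p = 0.0171). Zfp608 no longer passed without Nfia 2 or without Nfia 3 (limma adjusted p up to 0.0684). Its close relative Zfp609, a partner of the cohesin loader in the developing cortex, averaged 19.95 ± 1.285 FPKM in control and 19.65 ± 1.669 FPKM with Nfia (limma adjusted p = 0.843). The higher one was Zfp704.

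Zfp423 and Zfp521, related genes for partners of SMAD proteins and early B-cell factors, did not pass the test. Zfp423 was 12.8, 14.04 and 12.7 FPKM in control and 12.4, 13.2 and 14.2 FPKM with Nfia, and its groups overlapped. Zfp521 was 8.84, 10.3 and 9.72 FPKM in control and 7.60, 8.90 and 9.54 FPKM with Nfia, where the lowest control and the highest Nfia libraries crossed. Zfp191 is the older symbol of Zfp24, whose product is needed for myelination by oligodendrocytes, and it is not counted in the list because the list holds the newer symbol. It averaged 52.8 ± 1.87 FPKM in control and 51.5 ± 1.81 FPKM with Nfia (limma adjusted p = 0.596). Zfp488, an oligodendrocyte lineage gene, fell below the level, at a mean of 0.0290 FPKM. The remaining members of the list had log2 differences from -0.22 (Zfp711) to 0.19 (Zfp365), among them Zfp462, Zfp335, Zfp292, Zfp536, Zfp407, Zfp644, Zfp148, Zfp281, Zfp827 and Zfp36, and none of them passed.

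Among 9 members known to act on imprinted genes or retroelements, or placed in the same arrays as such genes, 1 was lower and 1 higher, a called share of 22.2% against 31.3% of all genes tested. ZFP57 is a KRAB protein that keeps DNA methylation at imprinted regions in the embryo. Zfp57 was 45.5, 41.3 and 49.8 FPKM in control and 34.0, 32.5 and 35.6 FPKM with Nfia, a fall by 25.4% (log2 difference -0.41, SE 0.07, limma adjusted p = 0.00757). The groups did not overlap, and the call held without any 1 library but not without control 1 and Nfia 1 together (limma adjusted p = 0.0801). Zfp445, which encodes another KRAB protein of imprinted regions, averaged 37.2 ± 1.67 FPKM in control and 37.2 ± 0.288 FPKM with Nfia (log2 difference 0.00, SE 0.04, limma adjusted p = 0.98).

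ZFP809 silences murine leukaemia viruses by binding the primer binding site of the provirus. Zfp809 was 5.27, 5.56 and 6.08 FPKM in control and 6.83, 6.66 and 6.71 FPKM with Nfia, so the groups did not overlap (log2 difference 0.22, limma adjusted p = 0.0359). Zfp809 no longer passed when any library but control 3 was left out (limma adjusted p up to 0.101), nor with no filter on low values, a filter at a mean of 5 FPKM or upper-quartile scaling. Zfp568, whose KRAB product represses a placental Igf2 transcript, was 3.77, 3.49 and 3.55 FPKM in control and 4.27, 4.18 and 4.50 FPKM with Nfia, and it did not pass the test although its groups did not overlap (limma adjusted p = 0.0503). Zfp932, Zfp708, Zfp961, Zfp458 and Zfp429 had log2 differences of -0.10 to 0.03 and did not pass.

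Of 10 members that act on RNA or ribosomes, 2 were higher and 0 lower by limma, with a median log2 difference of -0.07, and at an unadjusted p under 0.05 there was 1 lower member, Zfp697 (log2 difference -0.25). Of all genes tested, 16.1% were higher and 15.1% lower, so 2 of 10 is near the background. ZFP598 is the ubiquitin ligase that marks collided ribosomes. Zfp598 was 22.3, 21.6 and 23.9 FPKM in control and 25.7, 27.7 and 29.7 FPKM with Nfia (log2 difference 0.28, limma adjusted p = 0.0172), which did not hold without control 1, without control 2 or without Nfia 2 (limma adjusted p up to 0.062). Zfp106, which encodes an RNA-binding protein needed by motor neurons, was 32.6, 32.1 and 32.8 FPKM in control and 37.8, 38.9 and 42.1 FPKM with Nfia (log2 difference 0.27, limma adjusted p = 0.00753). Zfp36, which encodes tristetraprolin, a CCCH protein that drives the decay of AU-rich mRNAs, averaged 5.92 ± 0.717 FPKM in control and 6.21 ± 0.663 FPKM with Nfia (limma adjusted p = 0.689). Zfp622 and Zfp593, for maturation factors of the large ribosomal subunit, had log2 differences of -0.12 and 0.10 and did not pass, nor did Zfp330, Zfp326, Zfp346 and Zfp706 (-0.10 to -0.07).

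Zfp207, for the spindle protein BuGZ, had the highest level of all members, 182, 163 and 175 FPKM in control and 172, 165 and 169 FPKM with Nfia. Its groups overlapped (log2 difference -0.04, limma adjusted p = 0.642). Of 6 members linked to the spindle or DNA damage, which also hold Zfp365, Zfp451, Zfp318, Zfp668 and Zfp830, 0 passed limma's test in either direction. An unadjusted p under 0.05 was found for 2, Zfp365 (log2 difference 0.19) and Zfp668 (-0.16). Of all 12537 genes tested, 31.3% passed, and 5430 had an unadjusted p under 0.05. A list of 6 is too short to read against these shares.

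The 12 members with the highest levels ranged from 42.4 FPKM (Zfp131) to 171 FPKM (Zfp207), and none of them passed the test. After Zfp207 came Zfp428 at a mean of 93.3 FPKM and Zfp664 at 89.3 FPKM. Zfp664 was 90.9, 88.8 and 88.0 FPKM in control and 91.0, 88.8 and 88.4 FPKM with Nfia (log2 difference 0.00, SE 0.04). Zfp219, Zfp146, Zfp422, Zfp191, Zfp740, Zfp91, Zfp637 and Zfp266 followed, with log2 differences from -0.16 (Zfp422) to 0.09 (Zfp637). At the other end, 67 members had a mean below 5 FPKM. Just inside the level were Zfp939 at a mean of 2.00 FPKM, Zfp964 at 2.03 FPKM and Zfp619 at 2.03 FPKM. Just outside it were Zfp712 at 1.92 FPKM, Zfp934 at 1.91 FPKM and Zfp583 at 1.85 FPKM.

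Some members that did not pass had differences as large as called ones, with wider spread. Zfp692 was 15.04, 11.8 and 15.6 FPKM in control and 17.1, 17.3 and 19.97 FPKM with Nfia (log2 difference 0.34, limma adjusted p = 0.0556). Zfp773 was 4.43, 2.79 and 3.69 FPKM in control and 2.39, 2.88 and 2.21 FPKM with Nfia (log2 difference -0.40, limma adjusted p = 0.0826). These examples were picked after their values were seen. Control 2 was the low control library in both.

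**Figure D3:**
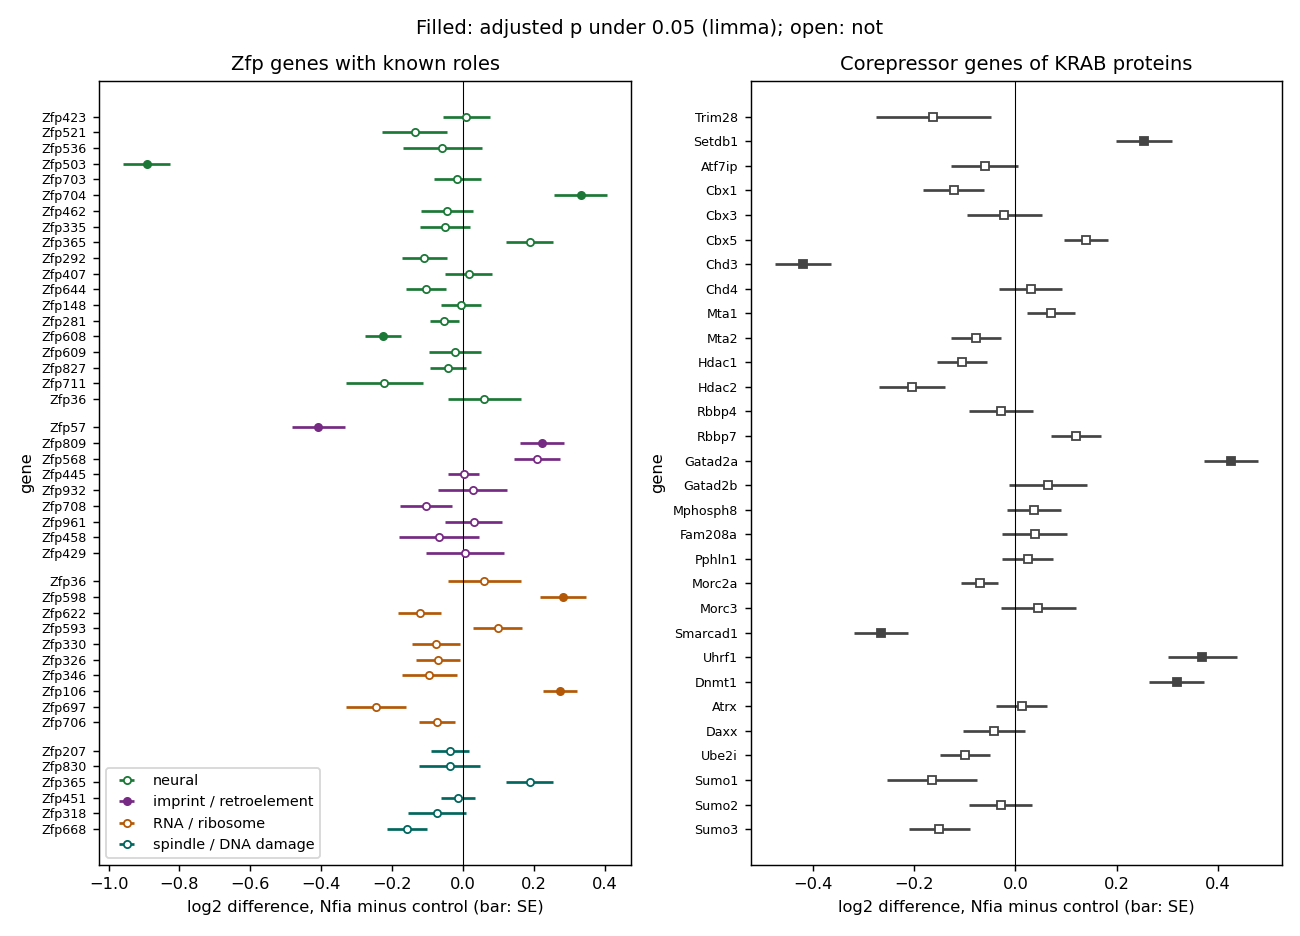
Log2 difference, Nfia minus control, with its SE, for the members with known roles in 4 lists (left; Zfp36 and Zfp365 stand in more than 1) and for 30 genes of the KRAB corepressor machinery (right). Filled points passed the test; Zfp503, at -0.89, lies far from the other neural members.

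Genes of the machinery that KRAB proteins recruit moved in both directions. Of 30 tested, 4 were higher and 2 lower, against 31.3% of all genes tested that were called. Their median log2 difference was -0.03. Trim28, the corepressor that binds the KRAB domain, was 266, 287 and 211 FPKM in control and 238, 215 and 224 FPKM with Nfia, and the groups overlapped (limma adjusted p = 0.322). Setdb1, the histone H3 methyltransferase of the complex, was 28.0, 31.8 and 28.7 FPKM in control and 34.6, 35.2 and 36.1 FPKM with Nfia (log2 difference 0.25, limma adjusted p = 0.0143). Gatad2a (log2 difference 0.43) and Chd3 (-0.42), both for subunits of the NuRD deacetylase complex, went opposite ways. The DNA methylation genes Uhrf1 and Dnmt1 were higher, by log2 differences of 0.37 and 0.32, and the remodeller gene Smarcad1 was lower (-0.27). With upper-quartile scaling and with quantile normalization 4 in place of 2 were lower. Without control 1 and Nfia 1 together 1 was higher and 2 lower, and Setdb1, Uhrf1 and Dnmt1 did not pass.

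Position in the genome was used to group the members, because no protein sequences were at hand to find KRAB domains. RefSeq positions (GRCm38.p6) were found for all 276 members, 275 by their own symbol and Zfp191 as Zfp24. A run was defined as 3 or more RefSeq Zfp genes with gaps of at most 500 kb, and 164 members lay in 34 such runs, with 72 members on chromosome 7 alone. Of the members in runs, 26 were lower and 5 higher, with a median log2 difference of -0.08 and 74.4% below 0. Of the 112 outside runs, 14 were lower and 9 higher, with a median of -0.03 and 59.8% below 0. The lower members were 15.9% of those in runs and 12.5% of those outside, near the 15.1% of all genes tested, and the higher members were 3.05% and 8.04%, against 16.1%. The difference between these groups of genes was not tested. Without Nfia 2 the counts were 13 lower and 2 higher in runs, and 5 and 5 outside. The same fit had 1251 lower and 1290 higher among all 12537 genes tested. Without control 1 and Nfia 1 together, 8 were lower and 0 higher in runs by limma, and 3 lower and 4 higher outside. That fit had 950 lower and 1008 higher among all genes tested. At an unadjusted p under 0.05 by limma, 5 members in runs were higher there, and no matching count of all genes is given. Members of a run can share long stretches of sequence, and the sources used here do not say how fragments that match several copies were assigned, so values of single run members are uncertain.

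The run on chromosome 7 from 29768552 to 30169775 held 15 Zfp genes, all of them members. Of these 12 had a log2 difference below 0, and Zfp30, Zfp383 and Zfp790 were lower. Calls of 3 in 15 are read against 15.1% lower among all genes tested, and runs were picked for description after their values were seen. On chromosome 17, from 32765496 to 33631716, 11 of 13 Zfp genes were members, 7 of them with a log2 difference below 0, and Zfp811, Zfp799 and Zfp563 were lower. Zfp811 and Zfp799 are neighbours there, at 32795676 to 32810057 and 32815449 to 32830261. In the run of chromosome 13 from 66670274 to 67827000, 10 of 11 members had a log2 difference below 0, and Zfp65 and Zfp87 were lower. The lower calls, 3 of 11 members on chromosome 17 and 2 of 11 on chromosome 13, stand beside the same 15.1%. A log2 difference below 0 was seen in 48.5% of all genes tested and in 74.4% of the members in runs. Single runs were not tested.

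Other runs held members that went opposite ways. On chromosome 9 Zfp809 (22225667 to 22254117) was higher and Zfp810 (22276737 to 22307814) was lower. Zfp599 (22244164 to 22259895) lies between them and overlaps Zfp809, and whether the counting used strand is not stated, so reads of this pair may be mixed. Zfp599 averaged 2.87 ± 0.278 FPKM in control and 2.27 ± 0.454 FPKM with Nfia and did not pass (limma adjusted p = 0.164). On chromosome 17, from 21008941 to 23599755, Zfp948 was higher and Zfp946 lower among 16 members. On chromosome 6 Zfp777 was higher and Zfp467 lower in a run of 9 members. A shared run did not go with a shared direction in these 3 cases, which were described for that reason. In leave-one-out fits, Zfp809 and Zfp777 each lost their call in 5 and Zfp948 in 3, while the calls of Zfp810, Zfp946 and Zfp467 held. Without control 1 and Nfia 1 together, the calls of Zfp809, Zfp777, Zfp948 and Zfp946 did not hold.

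**Figure D4:**
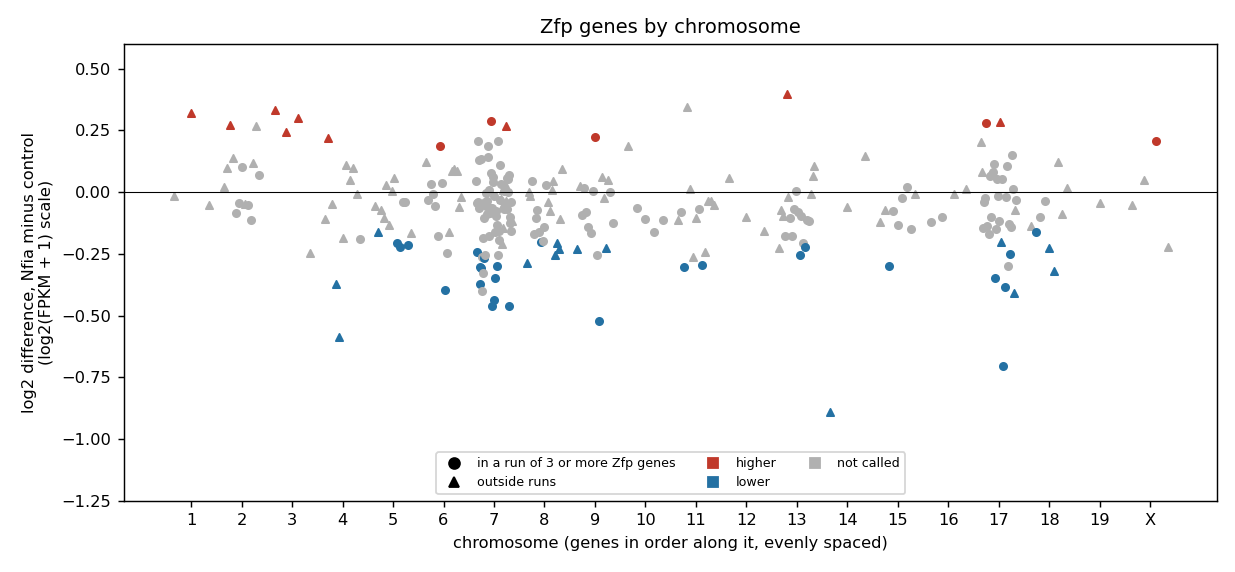
Log2 difference, Nfia minus control, of the 276 members by chromosome, in their order along it, as circles for the 164 in runs and triangles for the 112 outside, coloured by call. Blue points of runs on chromosomes 7 and 17 stand among many grey ones, and the lowest point is Zfp503 on chromosome 14.

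Of the 57 Zfp symbols below the level, 21 were tested and 0 passed limma's test, with 4 at an unadjusted p under 0.05. Of all genes tested, 31.3% passed. The tested ones of the 57 lie near the floor, and their median SE was 0.119, against 0.0703 for all genes tested. Changes of such low genes are harder to detect. Of the same 57, 5 were listed at 0 in all libraries. In the settings that kept all 6 libraries, the number of lower members lay between 31 and 52 and that of higher members between 9 and 16.

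**Figure D5:**
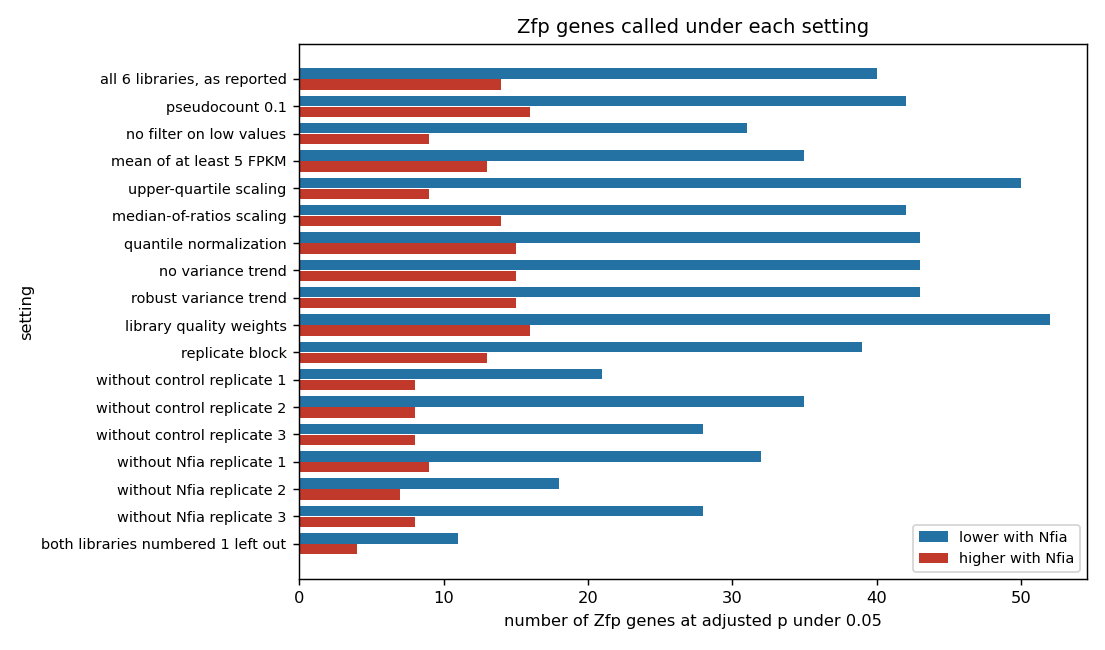
Number of Zfp genes at an adjusted p under 0.05, lower (blue) and higher (red) with Nfia, as reported and under each alternative setting. Lower calls outnumber higher ones in every setting, and the counts are smallest without control 1 and Nfia 1 together (11 and 4).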

How the data were processed

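Poly(A) RNA was sequenced with a directional library kit, per the labels' protocols, from 3 control and 3 Nfia libraries. The values deposited by the authors are FPKM, 1 per gene symbol and library, read as such from the values and the tools named. Per the submitters' processing notes, the tools included Cufflinks, Cuffdiff, TopHat, SAMtools and Bowtie version 1, with the build mm10, in no stated role or order; the sources used here do not give annotation, filters or use of strand. FPKM is a share of a library, so abundant genes that rise lower the others.

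The 12537 genes at a mean of 1 FPKM or more were compared on log2(FPKM + 1) with limma 3.58.1 in R 4.3.3 (variance trend, two-sided, Benjamini-Hochberg, threshold 0.05). This scale understates changes of low genes; exact permutation of 3 against 3 libraries cannot give p below 0.1. Relative depth was 0.758 to 1.11 of control 1. Named were the 12 highest members, the 14 largest called differences each way without overlap, members of 4 role lists, members at the level's edge and called corepressor genes; pairs alike across libraries were left out, because the libraries form 2 groups. Members and lists were chosen with earlier results of these data known. Runs replaced a planned grouping by KRAB domain, which needs proteins. Alternatives were pseudocount, filter, scaling, variance model, weights, replicate block, member level and leaving out each library; a fit without control 1 and Nfia 1 was added after seeing the data.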

Additional observations from a re-analysis of the deposited data

How the results depend on the processing

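The 54 called members kept their sign in every setting, 22 stayed called without any 1 library and in each setting with all 6, and 15 also without control 1 and Nfia 1 together, a fit chosen after seeing the data. Of these 54, 49 stayed called with upper-quartile scaling, 40 with no filter on low values, 48 with the replicate block and 25 without Nfia 2. Higher members numbered 9 with no filter on low values and 9 with upper-quartile scaling, against 14. The median log2 difference of Zfp members was -0.0924 with upper-quartile scaling, against -0.06. The median of all genes tested moved the same way, to -0.022 with this scaling, against 0.0084. The cause of the changed counts was not tested. Higher members in runs numbered 3, against 5, with no filter, a mean of at least 5 FPKM, upper-quartile scaling, the replicate block and gaps of at most 200 kb, a grouping chosen after seeing the data. Lower corepressor genes numbered 4, against 2, with upper-quartile scaling, quantile normalization and the replicate block. Leaving out 1 library, which also means fewer samples, gave 7 to 9 higher and 18 to 35 lower members, 2 to 3 higher and 13 to 26 lower in runs, 5 to 7 higher and 5 to 13 lower outside runs, 3 to 5 higher and 2 to 3 lower corepressor genes, and a median of -0.07 to -0.05. Without control 1 and Nfia 1 together, 2 libraries per group, there were 4 higher and 11 lower members. In runs 0 were higher and 8 lower, outside runs 4 were higher and 3 lower, and 1 corepressor gene was higher. This fit had 1008 higher and 950 lower among all genes tested. Leaving out 1 library gave 1290 to 1625 higher and 1251 to 1572 lower among all genes tested. Of 1467 values of 87 named genes under alternatives, 1372 kept their side of the threshold, 80 lost a call, 15 gained a call and 0 of the called ones turned sign.

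Control and Nfia libraries of the same number did not deviate together (correlations of deviations 0.03, -0.01 and 0.05 over genes), so by this measure the numbers do not pair the libraries, although control 1 and Nfia 1 were both low in mesenchymal genes. The replicate block gave 39 lower and 13 higher members, and the Zfp809 log2 difference did not pass with it (limma adjusted p = 0.0566). The grouping of members by KRAB domain, with its shorter pattern, was not run. Depth is known only as a ratio between libraries, so no counting interval is given.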
